A study of Mus musculus with 2 samples.

Results

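The collagen and laminin genes of the mouse were examined for open chromatin in embryonic neural tube. They were the protein-coding genes of the GENCODE vM21 annotation whose symbols are Col, a number, a and a number, or those of the laminin alpha, beta and gamma chains. The rule gave 55 genes of 21853 in all, of which 44 encode collagens and 11 encode laminins. The assay was DNase-seq, in which the enzyme DNase I cuts DNA that is not tightly wrapped in nucleosomes. The tissue was neural tube, the precursor of brain and spinal cord, taken on day 11.5 of development from pooled male and female mouse embryos of the B6NCrl strain. There was 1 group of 2 biological replicates, each 1 library, and both carry the same donor label. No treatment or second genotype was labelled, and the labels name a further sequencer model for replicate 2.

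Collagens are triple-helical proteins of the extracellular matrix, and laminins are cross-shaped trimers of an alpha, a beta and a gamma chain. Type IV collagen and laminins form the basement membrane, the sheet on which the cells of the neural tube rest and which also surrounds its blood vessels. Fibrillar collagens build the fibres of connective tissue such as the meninges, skin and bone, and collagens II, IX, X and XI are typical of cartilage, which forms around the spinal cord from the mesenchyme of the somites.

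Peaks, which are windows of 150 bp on the mm10 build, were called by the authors in each library on its own. Replicate 1 held 199653 peaks and replicate 2 held 154324. A gene was counted as having an open promoter when a peak reached within 500 bp of any of its transcription start sites (TSSs). Peaks centred over 1 kb from all protein-coding TSSs were called distal. Each was given to the gene whose TSS was closest, which does not show that it acts on that gene. Each peak has a score that the authors deposited, given here as its percentile within its own list. The files hold no read counts, so the depth is unknown. With 1 group of 2 libraries no test across samples was made, and both libraries are given for each value.

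Most collagen and laminin genes had an open promoter, and the fibrillar collagens all did. Both libraries gave a promoter peak at 46 of the 55 genes, or 83.6%, against 66.5% of all protein-coding genes. Replicate 1 alone gave 47 genes and replicate 2 alone also gave 47, against 68.5% and 67.7% of all genes. A further 2 genes had a peak in 1 library only, which was the case for 3.13% of all genes. The remaining 7 had none in either library, as did 30.4% of all genes. All 11 fibrillar collagens were open in both libraries, and so were 18 of 19 basement membrane genes and 5 of 7 cartilage collagens. Col2a1, Col11a1 and Col11a2 count both as fibrillar and as cartilage collagens, and of the other 4 cartilage collagens 2 were open. Among the other collagens 15 of 21 were open in both libraries.

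Because the tissue was a bulk sample, an open site in few cells and a weaker opening in many cells cannot be told apart. Promoter peaks in both libraries were found at 8 of 8 markers of neural progenitors, 6 of 6 of neurons and 9 of 10 of mesenchyme and cartilage precursors, where Matn1 had none. They were found at 4 of 7 markers of endothelium and mural cells, with Cdh5 and Eng at none and Tek in replicate 2 only. Of 5 epithelial markers 2 had them, with Krt14 and Trp63 at none and Krt5 in replicate 2 only. The share over all genes was 66.5%, and over all genes with the CG-rich promoters (a CpG ratio, defined further on, of at least 0.6) 97.9%. The median CpG ratio was 0.859, 0.793 and 0.779 in the first 3 lists and 0.352 and 0.406 in the endothelial and epithelial ones, so the counts name no cell type. A peak at a marker gene is no measure of its RNA, and what part other cells had in the peaks of the matrix genes was not tested.

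The genes of collagen IV, the network-forming collagen of basement membranes, lie in pairs that start head to head. Col4a1 and Col4a2 encode the chains found in nearly all basement membranes, and their TSSs were 21 bp apart on chromosome 8. The same 150 bp peak covered both starts in both libraries. It lay at chr8:11312756-11312905 with a score of 98 in replicate 1 and 86 in replicate 2, the 87.2 and 90.6 percentile of the lists. Its sequence on the plus strand of mm10, the strand of Col4a2, is shown because it covers the starts of both genes. Matches to the GC box (GGGCGG) and the CCAAT box (CCAAT) on either strand are in capitals.
Col4a1 and Col4a2: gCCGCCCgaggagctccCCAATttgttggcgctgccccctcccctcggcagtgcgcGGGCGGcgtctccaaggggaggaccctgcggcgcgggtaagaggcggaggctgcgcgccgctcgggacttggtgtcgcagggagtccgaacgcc
The window held 3 such matches and 19 CG pairs at 74% GC. A GC box was found in 28.0% and 34.6% of promoter peaks of the matrix genes in replicates 1 and 2, against 42.3% and 45.2% of promoter peaks of all genes. A CCAAT box was found in 13.4% and 14.1% of them, against 20.5% and 20.0% over all genes. These letters are common at promoters, and a match is a description of the sequence, not a shown binding site.

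The other collagen IV pairs were less alike. Col4a3 and Col4a4, whose chains with that of Col4a5 form the mature membrane of the kidney glomerulus, start 127 bp apart on chromosome 1. The best peak within 500 bp of both starts was at the 45.3 percentile of score in replicate 1 and the 36.8 percentile in replicate 2. These were different sites. The replicate 2 peak that overlapped the one of replicate 1 was at the 31.0 percentile. In both libraries the best peak of this pair was among the weakest best promoter peaks of the matrix genes. Col4a5 and Col4a6 on chromosome X start 1309 bp apart and had separate peaks. Col4a5 stood at the 92.9 and 89.4 percentile, and Col4a6 at the 54.4 and 39.6 percentile. Within each library the 3 genes Col4a1, Col4a2 and Col4a5 were thus high, and the other 3 were low. No other collagen or laminin gene had the coding TSS of a different gene within 1500 bp.

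Among the laminins the promoter peaks of the chains of laminin-111, the main laminin of early embryonic basement membranes, were unequal. Lamc1, the gamma chain shared by most laminins, was at the 97.5 percentile in both libraries. Lama1, its alpha chain, was at the 95.3 and 95.2 percentile. Lamb1, the beta chain, was lower, at 79.2 and 78.2. Chains known from the membrane under the epidermis were lower than Lamc1 and Lama1. Lama3 was at the 70.6 and 72.1 percentile. Lamb3, a beta chain of that membrane, had no promoter peak in replicate 1 and in replicate 2 one at the 44.6 percentile at its downstream start. In replicate 1 the nearest peak lay 584 bp from an upstream start, 94.3 kb from the downstream one. Near the downstream starts the closest peak of replicate 1 was 3273 bp away. Of the remaining chains, Lama5 was at the 88.5 and 86.9 percentile, Lamb2 at 85.0 and 71.4, Lama4 at 82.0 and 84.6, Lamc3 at 72.6 and 78.2, and Lama2, the alpha chain of muscle and peripheral nerve, at 67.1 and 70.6. The multiplexins, basement membrane collagens that release endostatin-like fragments, were both open, with Col18a1 at 91.1 and 90.4 and Col15a1 at 69.3 and 66.0.

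The fibrillar collagens were open without exception, at levels that ranged widely. Col11a1, which sets the diameter of type II collagen fibrils, had the highest promoter peak of all the matrix genes in replicate 1, at the 98.1 percentile, and was at 94.7 in replicate 2. Col5a1, which has the corresponding role for type I collagen fibrils, had the highest in replicate 2, at 99.4, and was at 96.5 in replicate 1. Col2a1, the main fibrillar collagen of cartilage, was at 92.0 and 92.2. The genes of type I collagen, the main protein of bone and skin, differed within the 500 bp window. Col1a2 was at 86.8 and 86.5, and Col1a1 at 60.4 and 69.8. This contrast depended on the window and the annotated starts. A Col1a1 peak 0.93 kb downstream of its TSS, outside the window, was at 93.65 and 92.42. The Col1a2 peak lay at its downstream TSS. Peaks within 500 bp of the upstream TSS of Col1a2 were at 50.9 and 45.3 in replicate 1 and at 24.9 in replicate 2. Col3a1, which accompanies type I collagen in soft tissues, was at 75.7 and 56.0. Col11a2 was low in both libraries, at 55.5 and 57.5. The other fibrillar genes, Col5a2, Col5a3, Col24a1 and Col27a1, lay between 67.0 and 90.8 over both libraries.

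Where a promoter was open, its peak was usually weaker than those of other genes. Over the open genes the median of the best promoter peak was the 80.3 percentile in replicate 1 and 78.8 in replicate 2, against 95.7 and 94.7 over all genes with an open promoter. The quartiles of all genes ran from 89.9 to 98.1 in replicate 1 and from 88.1 to 97.7 in replicate 2, so the median of the matrix genes lay below the lower quartile. Fibrillar collagens had medians of 86.8 and 84.2, basement membrane genes 80.6 and 78.2, and cartilage collagens 73.9 and 78.8. These class medians differed by less than the range within each class. The open genes of collagen VI, which forms beaded filaments, spread over most of the scale. Col6a6 was at 20.0 and 52.6 and Col6a3 at 36.8 and 42.2, while Col6a1 was at 65.5 and 69.8 and Col6a2 at 92.5 and 93.0.

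**Figure D1:**
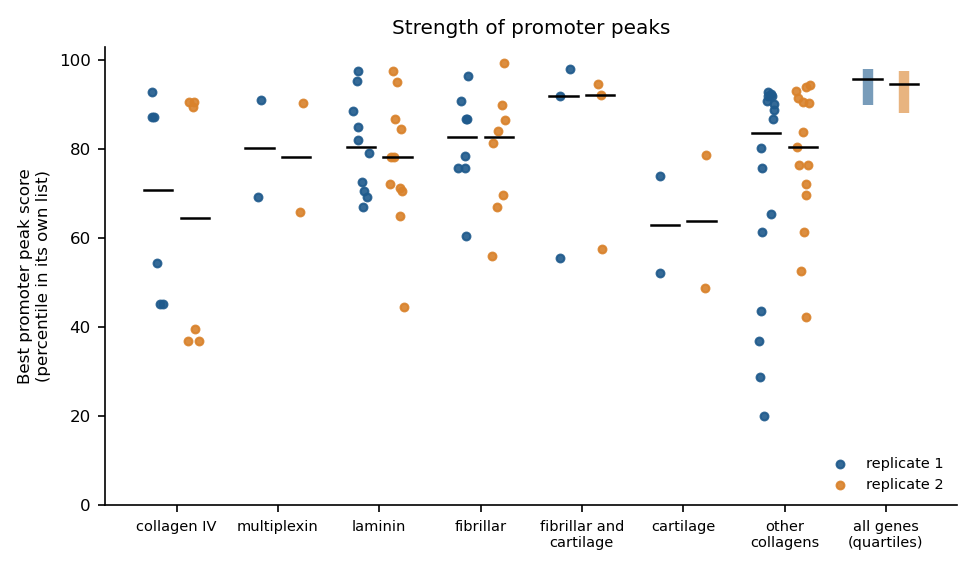
Score of the best promoter peak of each open collagen or laminin gene as its percentile among the peaks of its library (y axis), by class (x axis), with replicate 1 in blue and replicate 2 in orange. Black lines are medians, the bars at the right are the quartiles of all protein-coding genes with an open promoter, and genes that are both fibrillar and cartilage collagens have a column of their own. Collagen IV falls into 3 high and 3 low genes, and the medians of all genes, 95.7 and 94.7, lie above that of every class.

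Open promoters of collagen and laminin genes often lacked the CG pairs that mark most open promoters. The CpG ratio is the number of CG pairs observed within 250 bp of the TSS over the number expected from its C and G content, taken at the TSS of the gene where it is highest. Its median was 0.478 for the matrix genes, against 0.677 for all genes. It was 0.614 for basement membrane genes, 0.423 for fibrillar and 0.387 for cartilage collagens. At a ratio of 0.6 or more, 21 of 21 matrix genes were open in both libraries, against 97.9% of all genes. Under 0.6, where 26.6% of all genes were open, 25 of 34 matrix genes were. By finer steps, 13 of 14 were open between 0.4 and 0.6 (92.9%, against 70.9% of all genes), 10 of 16 between 0.2 and 0.4 (62.5%, against 21.9%) and 2 of 4 under 0.2 (50%, against 3.68%). The share of open matrix genes lay above that of all genes in each of these 4 steps, narrowly in the highest. Examples of open genes with few CG pairs were Col9a1, with a ratio of 0.103, Col3a1 with 0.182, Col6a1 with 0.225, Col6a3 with 0.269 and Col22a1 with 0.312.

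**Figure D2:**
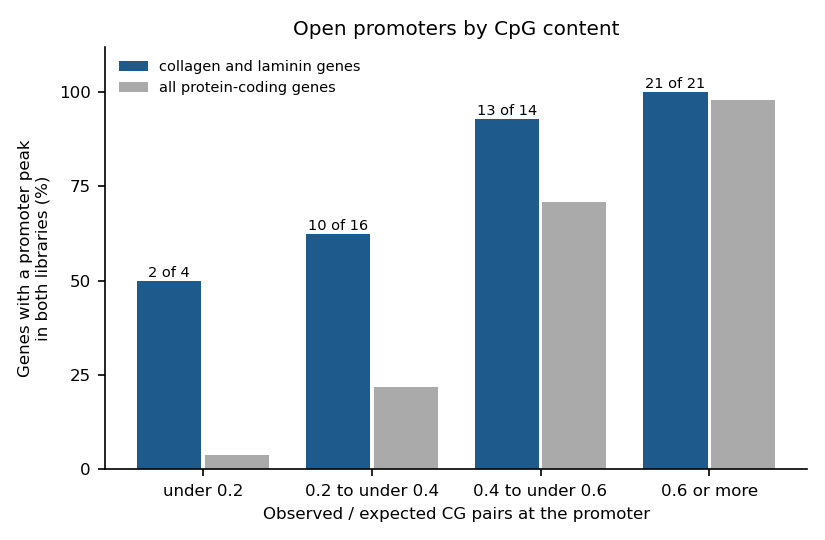
Percentage of genes with a promoter peak in both libraries (y axis) by the ratio of observed to expected CG pairs at the promoter (x axis), for collagen and laminin genes in blue and all protein-coding genes in grey. Numbers over the blue bars are open genes of all matrix genes in that step, and the bars are closest at 0.6 or more, where 21 of 21 matrix genes and 97.9% of all genes were open.

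Within the matrix genes the promoters with more CG pairs also had the stronger peaks. CpG-rich ones, at 0.6 or more, had medians of 87.2 and 86.9, against 96.7 and 95.8 for all open CpG-rich genes. CpG-poor ones had medians of 75.7 and 70.2, against 78.6 and 78.2 for all open CpG-poor genes. The medians of the matrix genes were below those of all genes by more among CpG-rich promoters, clearly in replicate 1 and narrowly in replicate 2. A pair of promoters from RefSeq on GRCm38.p6, the same assembly as mm10, shows the contrast, with the CG pairs in capitals. That of Col5a1 lies at chr2:27886175-27886474 and that of Col10a1 at chr10:34389731-34390030, both on the plus strand.
Col5a1: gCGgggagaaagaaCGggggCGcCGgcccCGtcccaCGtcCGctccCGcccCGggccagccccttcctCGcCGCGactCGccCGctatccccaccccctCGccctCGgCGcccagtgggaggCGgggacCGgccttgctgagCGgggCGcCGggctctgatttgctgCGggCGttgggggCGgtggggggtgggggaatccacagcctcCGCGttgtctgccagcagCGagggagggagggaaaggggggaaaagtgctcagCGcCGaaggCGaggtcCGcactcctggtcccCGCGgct
Col10a1: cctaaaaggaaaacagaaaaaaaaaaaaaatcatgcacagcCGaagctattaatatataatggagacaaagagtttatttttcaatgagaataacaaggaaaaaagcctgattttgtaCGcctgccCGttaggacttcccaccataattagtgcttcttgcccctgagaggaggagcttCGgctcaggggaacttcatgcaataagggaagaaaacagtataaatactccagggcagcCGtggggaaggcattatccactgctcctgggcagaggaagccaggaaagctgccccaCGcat
The Col5a1 promoter, open in both libraries, held 34 CG pairs at 75% GC, and the Col10a1 promoter, closed in both, held 6 at 44.3% GC.

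The 7 genes without a promoter peak in either library came from several classes. Col10a1 encodes the collagen of hypertrophic cartilage, a late stage of bone formation, and its nearest peak lay 21576 bp away in replicate 1 and 28495 bp away in replicate 2. Col17a1, a transmembrane collagen of the hemidesmosomes that anchor skin, had its nearest peak at 7742 and 17409 bp. Col6a4 and Col6a5, which encode further collagen VI chains, had theirs at 2773 bp in both libraries and at 1258 and 19258 bp. Col20a1, a fibril-associated collagen, had its nearest peak at 1201 and 1041 bp, and Col28a1, known from peripheral nerve, at 1289 and 1349 bp. At Col28a1 these distances are to a start 12.4 kb downstream. From its upstream start the nearest peaks were 3492 and 13792 bp away. The nearest peaks lay outside the window by less than 1 kb at Col20a1 and the downstream start of Col28a1. They lay outside it by many kb in both libraries at Col10a1 and Col17a1.

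Col9a2, a chain of the cartilage collagen IX that coats type II fibrils, was closed only by a narrow margin. Its nearest peaks lay 571 and 551 bp from the GENCODE TSS, just outside the window. The RefSeq start of the gene lies 181 bp further in, and the same peaks were 390 and 370 bp from it. They had scores of 79 in replicate 1 and 58 in replicate 2, and a hotspot, a broader region of cutting called by the authors, overlapped the promoter in both libraries. The peak of replicate 1 lies at chr4:121039956-121040105 and is shown on the plus strand, the strand of the gene, because it decides the count of open cartilage collagens. Letters known from SOX factors (ACAAAG or ACAATG, either strand) are in capitals.
Col9a2: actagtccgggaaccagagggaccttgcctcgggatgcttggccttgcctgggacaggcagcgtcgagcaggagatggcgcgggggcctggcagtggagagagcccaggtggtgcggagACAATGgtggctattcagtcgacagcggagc
Such letters were present in 8.54% and 7.69% of the promoter peaks of the matrix genes, against 11.1% and 9.84% of promoter peaks of all genes. At the opposite edge of the window was Col7a1, the collagen of the anchoring fibrils of skin. It counted as open in replicate 1 by a peak 301 bp from its TSS at the 28.8 percentile, and its nearest peak in replicate 2 lay 3721 bp away.

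Many of these genes have several annotated starts, and most often the most upstream start was the open one. Starts over 2 kb apart were treated as separate. Col9a1 went the other way. Its upstream start was closed in both libraries, and its downstream start 17.6 kb away was open in both, at the 52.1 and 48.8 percentile. Both starts had a CpG ratio of 0.103. The protein from the downstream start is known to lack most of the amino-terminal domain and to occur outside cartilage, as in the eye. At Col18a1 the upstream start was open at 91.1 and 90.4, the starts 52.6 and 107 kb downstream were closed in both libraries, and the start at 77.1 kb was open in replicate 2 only. Col4a1 had a second open start 33.2 kb downstream, at 50.9 and 75.1, and a closed one at 102 kb. Both starts were open at Col13a1, the second 113 kb away at 34.9 and 46.8, and at Col16a1, the second 7.17 kb away at 54.4 and 31.0. Downstream starts were closed in both libraries at Col3a1, Col4a3, Col4a5, Col5a1, Col6a6, Col8a2, Col12a1, Col14a1, Col15a1, Col22a1, Col23a1, Lama2, Lama3 and Lamc1, all of which were open upstream.

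The collagen and laminin genes had more distal peaks around them than most genes. They numbered 791 in replicate 1 and 573 in replicate 2, with medians of 13 and 8 a gene, against 3 and 2 over all genes. The genes are long and far apart, so peaks were also set against territory, the length of genome nearer to the TSSs of a gene than to those of any other. Over the summed territory there were 7.85 and 5.69 distal peaks per 100 kb around the matrix genes, against 5.99 and 4.43 around all genes. By gene the medians were 8.11 and 6.03 per 100 kb, against 5.33 and 3.53. In the mean of both libraries 36 of the 55 were above the median of all genes, and 20 were above its 75th percentile. At least 1 distal peak in each library was found at 51 of the 55, against 66.1% of all genes. The matrix genes held 0.481% of all distal peaks in 0.370% of the territory.

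The classes hardly separated by this measure. Basement membrane genes had 261 and 181 distal peaks, or 7.83 and 5.43 per 100 kb of summed territory. Fibrillar collagens had 178 and 120, or 7.67 and 5.17 per 100 kb, and cartilage collagens 70 and 55, or 6.37 and 5.0 per 100 kb. This order was the same in both libraries, but it depended on the genes counted both as fibrillar and as cartilage collagens. Without them fibrillar collagens had 8.48 and 6.03 per 100 kb, and cartilage collagens 7.28 and 8.36. Cartilage collagens were then below basement membrane genes in replicate 1 and above them in replicate 2. Single genes within a class also ranged far more widely than the classes differed. The medians by gene gave no steady order, as that of replicate 1 was reversed in replicate 2. Fibrillar collagens were at 9.28 and 5.80, basement membrane genes at 7.96 and 6.07 and cartilage collagens at 3.71 and 7.93. Lamb2, the beta chain of synaptic and glomerular laminins, and Col7a1 had no distal peak in either library, against 22.5% of all genes that had none. Their territories, 14.6 and 19.4 kb, were short.

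**Figure D3:**
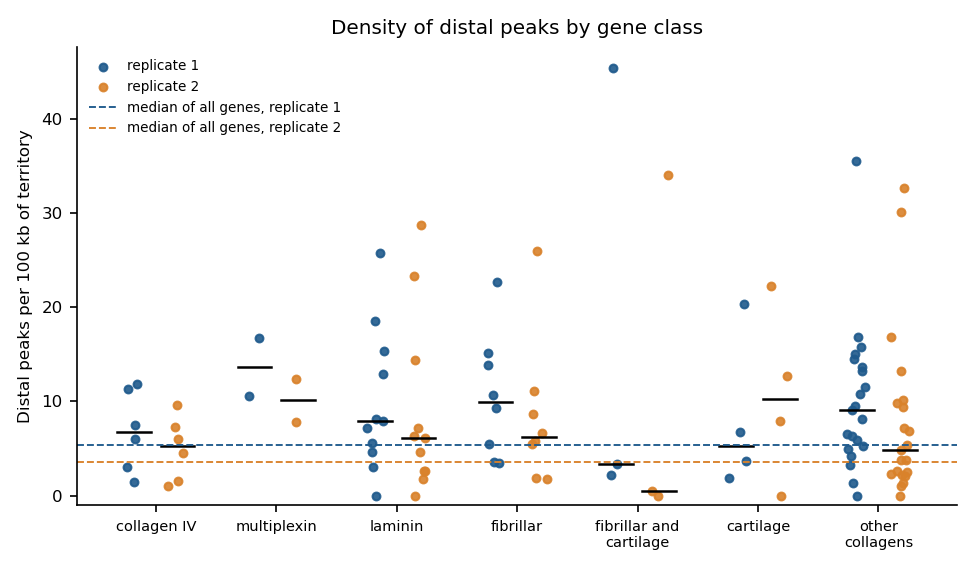
Distal peaks per 100 kb of territory (y axis) of each collagen and laminin gene by class (x axis), with replicate 1 in blue, replicate 2 in orange, black lines at class medians and broken lines at the medians of all protein-coding genes, 5.33 and 3.53. The values of each class overlap those of the others, and Col2a1, which is both fibrillar and cartilage collagen, is the highest point in each library.

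By number, the largest sets belonged to genes of every class. Among collagen IV genes Col4a1 led with 32 and 26 distal peaks, followed by Col4a4 with 14 and 9 and Col4a3 with 10 and 6. The mean of 29 for Col4a1 was 9 when the TSSs of GENCODE basic transcripts alone were used, and that of 8 for Col4a3 was 3.50. Among laminins Lama2 had 28 and 16 and Lama1 had 17 and 8. Within 50 kb of a TSS the mean of 22 for Lama2 was 3, and that of 12.5 for Lama1 was 8. The territory of Lama2 was 906 kb, and its mean of 2.43 per 100 kb was at the 35.3 percentile of all genes. Among fibrillar collagens Col1a2 had 39 and 17, Col5a1 27 and 22, and Col2a1 28 and 21. Among cartilage collagens Col2a1 was followed by Col9a1 with 17 and 20 and Col11a1 with 14 and 3. Among the other collagens the transmembrane Col13a1 had 30 and 29 and Col23a1 27 and 28. The mean of 27.5 for Col23a1 was 8 with basic transcripts and 11 within 50 kb of a TSS. Col14a1, a fibril-associated collagen, had 32 and 19, and Col26a1 had 16 and 35, the same mean of 25.5. Col25a1, a transmembrane collagen that motor axons need to reach muscle in the mouse, had 30 and 15. At the low end were Col4a2 and Col6a2, with 1 peak in each library, and Col11a2 and Col10a1, with 1 and 0. The TSS of Col4a1 lies 21 bp inside Col4a2. Distal peaks in the body of Col4a2 were thus never nearest to its own TSS. Those nearest to the pair were given to Col4a1, so this rule cannot divide them between these genes.

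**Figure D4:**
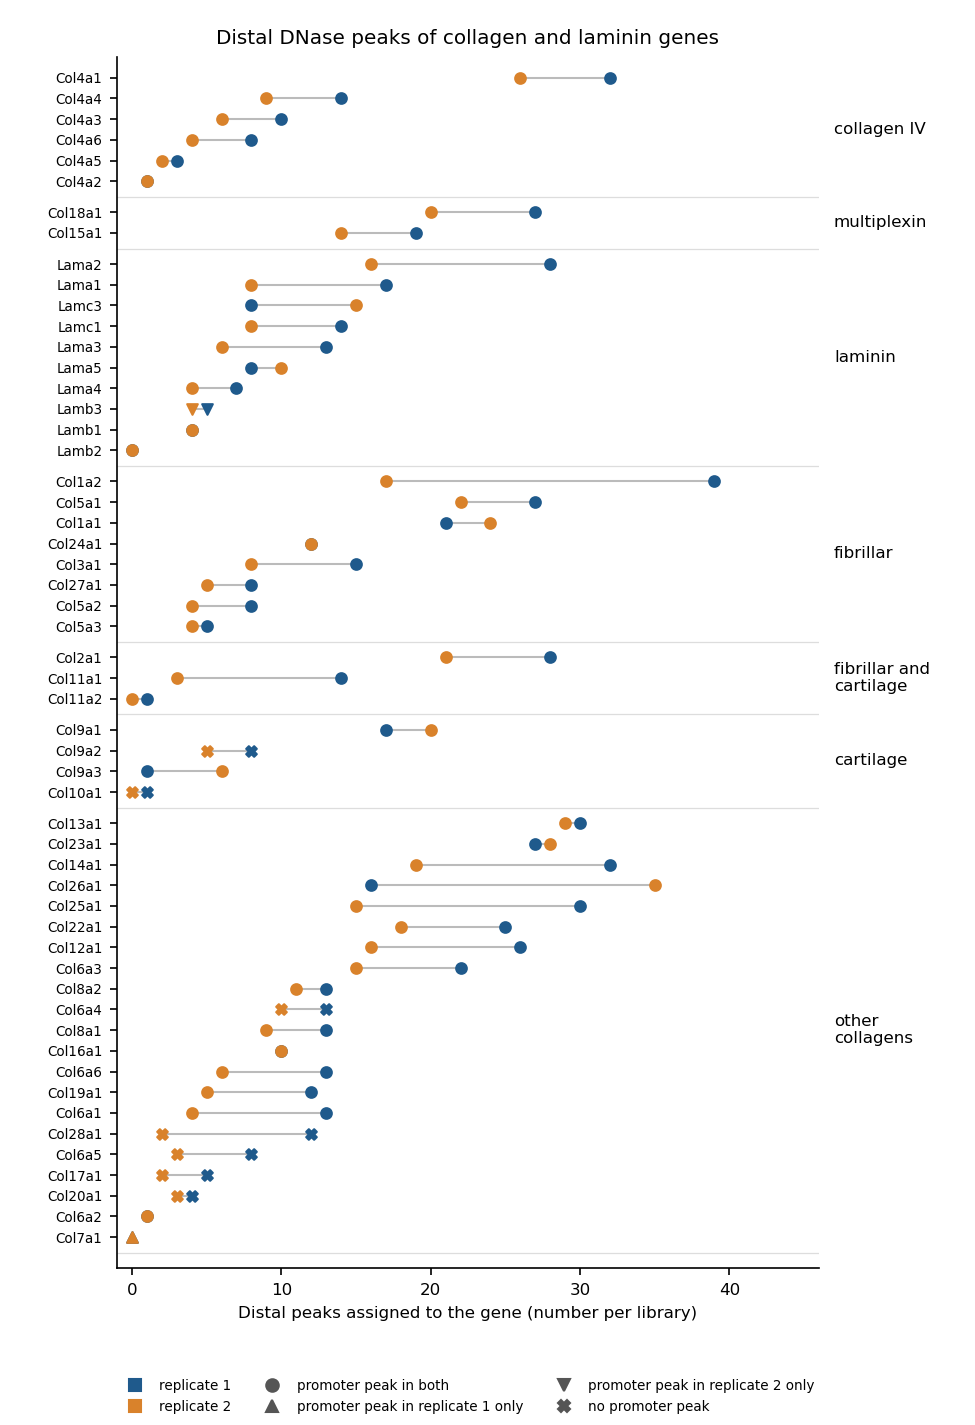
Number of distal peaks (x axis) of the collagen and laminin genes reported singly (y axis) in replicate 1, blue, and replicate 2, orange, joined by a grey line and ordered within class, with the marker shape giving the state of the promoter. Orange covers blue where both libraries gave the same number, Col1a2 reaches 39 in replicate 1, and Col26a1 shows more peaks in replicate 2 (35) than in replicate 1 (16), against the usual direction.

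Per length of territory the densest were Col2a1, Col8a2, Col1a1, Col26a1 and Lamc3. Col2a1 had 39.7 distal peaks per 100 kb in the mean of both libraries, the 98.6 percentile of all genes, within a territory of 61.7 kb. Its mean of 24.5 peaks was 16 when hotspots were counted and 11 when the TSSs of transcripts of every type were used, an alternative added after seeing the data. Of its peaks 19 of 28 in replicate 1 and 14 of 21 in replicate 2 lay in its introns. Col8a2, a short-chain collagen of the membrane behind the cornea, had 32.8 per 100 kb from 13 and 11 peaks, and its mean of 12 was 6 when only peaks over 5 kb from a TSS counted. Col1a1 had 24.3 per 100 kb from 21 and 24 peaks, of which 18 and 20 lay upstream of the gene. Within 50 kb of its TSS the mean was 9, against 22.5 at any distance. Over 50 kb away lay 16 of its 21 peaks in replicate 1 and 11 of 24 in replicate 2. Lamc3, a gamma chain found in the nervous system and elsewhere, had 22.1 per 100 kb from 8 and 15 peaks.

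Col26a1 was denser than the median gene in both libraries, and more so in replicate 2. It had 15.0 and 32.7 distal peaks per 100 kb, or 23.8 in the mean, against medians of 5.33 and 3.53 over all genes. Of its 16 peaks in replicate 1, 13 had a counterpart in replicate 2. Among the 35 in replicate 2, 21 overlapped none in replicate 1, and these had a median score at the 13.6 percentile. In all 17 of the 35 were in the lowest 25% of the list, against 0 of 16 in replicate 1. A smaller gap in the same direction was seen at Lamc3, and a larger one at the basement membrane gene Agrn, which encodes agrin and had 4 distal peaks in replicate 1 and 32 in replicate 2. What sets these libraries apart at such genes was not tested.

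**Figure D5:**
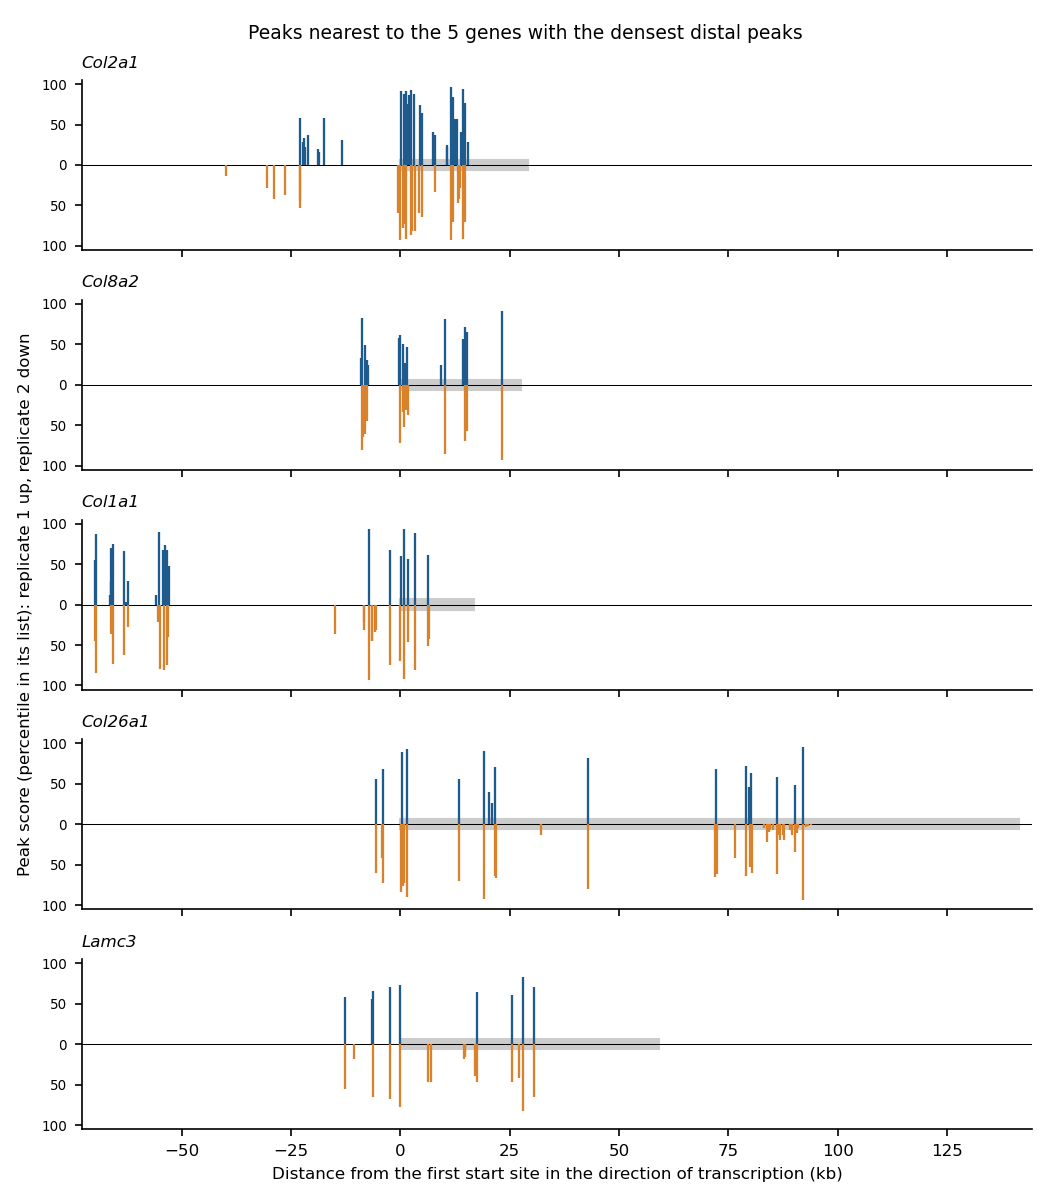
Peaks nearest to the 5 collagen and laminin genes with the most distal peaks per 100 kb, by distance in kb from the first start site in the direction of transcription (x axis), with the score percentile (y axis) upward for replicate 1 in blue and downward for replicate 2 in orange, and the gene as a grey bar. Col2a1 has strong peaks in both libraries over the near part of the gene, Col1a1 has clusters far upstream, and Col26a1 has a run of low peaks in replicate 2 alone.

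The distal peaks lay more often inside their own gene than those of the genome. Of the distal peaks of the matrix genes 58.3% and 62.1% were in an intron or exon of the gene they were assigned to, against 39.0% and 39.1% of all distal peaks. The matrix genes are long, and they were not compared with genes of like length. Basement membrane genes had 65.5% and 67.4% inside the gene, cartilage collagens 57.1% and 61.8% and fibrillar collagens 44.4% and 49.2%. In other respects they were close to the rest. Their median distance to the TSS was 33.8 and 29.8 kb, against 34.4 and 30.4 kb for all, and their median score was at the 42.1 and 44.6 percentile, against 43.7 and 42.2. In replicate 1, 46.6% overlapped a peak of replicate 2, against 48.1% of all distal peaks, and in replicate 2, 66.3% overlapped one of replicate 1, against 66.4%.

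The 5 distal peaks with the best scores in both libraries belonged to 5 genes. At the top was a peak in intron 16 of Col2a1 at chr15:97992976-97993125, 11606 bp from the TSS, with scores of 129 and 99. Next was one in intron 3 of Col26a1 at chr5:136791036-136791185, with 125 and 101, which stands within the run of low peaks described above. A peak in intron 1 of Lama1 at chr17:67698456-67698605, 1271 bp from the TSS, had 119 and 104. A peak assigned to Col6a3 lay downstream of the gene, 99757 bp from its TSS, at chr1:90744096-90744245 with 121 and 96. A peak upstream of Col1a1, at -7154 bp from its TSS and chr11:94928996-94929145, had 118 and 97. The coordinates are those of replicate 1, and each peak overlapped one of replicate 2.

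Col2a1 is known for enhancers in its first intron that SOX9 binds in cartilage. An intron 1 peak 1366 bp from the TSS, at chr15:98003216-98003365, had scores of 109 and 89. Other intron 1 peaks found in both libraries lay at 2486 bp, with 115 and 72, and at 3186 bp, with 100 and 58. Whether any of them is a known enhancer was not tested. The peak at 1366 bp is shown after the intron 16 peak, both on the minus strand, the strand of the gene. This sets the strongest distal site beside a site in the known intron. Capitals mark the GC box and the CCAAT box on either strand.
Col2a1 intron 16: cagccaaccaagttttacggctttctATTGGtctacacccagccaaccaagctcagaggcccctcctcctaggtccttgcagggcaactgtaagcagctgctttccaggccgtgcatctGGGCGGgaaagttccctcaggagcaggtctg
Col2a1 intron 1: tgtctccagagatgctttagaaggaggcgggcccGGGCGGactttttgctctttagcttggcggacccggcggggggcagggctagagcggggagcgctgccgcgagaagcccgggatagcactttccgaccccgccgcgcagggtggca
The intron 16 peak held 2 matches and 3 CG pairs, and the intron 1 peak shown held 1 match and 15 CG pairs. A GC box was present in 11.4% and 20% of the distal peaks of cartilage collagens, against 6.42% and 8.51% of all distal peaks, which is 8 of 70 peaks in replicate 1 and 11 of 55 in replicate 2. Col2a1 alone gave 28 and 21 of these peaks. Several motifs were counted, and some were higher and some lower at cartilage collagens. The CCAAT box was in 20% and 21.8%, against 18.1% and 16.5% of all distal peaks. Letters known from TEAD factors were in 2.86% and 5.45%, against 9.62% and 9.61%. The SOX letters were not more frequent at distal peaks of these genes. They were in 24.3% and 20% of those of cartilage collagens and in 23.1% and 20.6% of those of all matrix genes, against 24.0% and 20.6% of all distal peaks.

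The genes that process or bind these proteins were open at a share near that of CpG-rich genes. In a list of 25 enzymes and chaperones of collagen assembly, 24 had a promoter peak in both libraries, and the lysyl oxidase gene Loxl2 had none. Serpinh1, the collagen chaperone of the endoplasmic reticulum, had 20 and 16 distal peaks. All 15 receptor genes on the list were open, among them the integrin gene Itgb1 with 23 and 12 distal peaks and the dystroglycan gene Dag1 with 1 in each library. Of 13 partners in the basement membrane 12 were open, and Nid1, which links laminin to collagen IV, had no promoter peak but 16 and 9 distal peaks. Hspg2, which encodes perlecan, had 12 and 14. Together 51 of these 53 genes were open in both libraries, or 96.2%, at a median CpG ratio of 0.776, against 66.5% of all genes and 97.9% of all CpG-rich genes.

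The same holds for transcription factors known to drive cartilage, bone and tendon collagens. All 9 on the list had a promoter peak in both libraries, at a median CpG ratio of 0.803, where 97.9% of all CpG-rich genes had one, so the count does not set them apart. Sox9, which activates Col2a1 in cartilage and is also made by neural progenitors, had 126 and 109 distal peaks. Its partners Sox5 and Sox6 had 102 and 60 and 91 and 59. Runx2 and Sp7, which act in bone, had 54 and 39 and 9 and 6. Per 100 kb of territory, in the mean of both libraries, the order was different. Sp7 had 26.9, Sox9 9.40, Sox6 9.25, Sox5 7.61 and Runx2 7.51, against a median of 4.57 over all genes.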

How the data were processed

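DNase-seq was available for 2 libraries of 1 group. Per the file headers and the values, the authors deposited for each library a list of peaks with a whole-number score of at most 150, and a list of hotspots with a −log10 q-value. Not given in the sources used here are the caller, the cutoff and what the score measures. Repeated rows were dropped, 45 in replicate 1 and 22 in replicate 2. TSSs were those of protein-coding transcripts of GENCODE vM21, 54361 in all. Overlap required 1 bp. Scripts used Python 3.11.15, numpy 2.4.6, pandas 2.3.3 and pysam 0.24.0, and the assignment of peaks was tested on simulated data. Genes, classes and other lists were chosen with earlier results of these data known. Named in full were genes with a promoter peak in 1 library or none, the 3 of each class with the most distal peaks, head-to-head pairs, the 5 densest genes, the 5 best shared distal peaks and genes whose separate starts differ. Other genes, named as examples or extremes, were chosen after their values were seen. A gene named by this rule is not reported here by itself and stands only in the counts. RefSeq promoters were found for 40 of the 55. Alternatives changed windows, peak sets, TSS sets and libraries.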

Additional observations from a re-analysis of the deposited data

How the results depend on the processing

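Of 79 alternative values for the counts of open promoters and distal peaks, 69 were within 1.5 times the value reported and 10 were not. Open promoters in both libraries ranged from 39 to 48 for all 55 genes and from 15 to 19 for basement membrane genes. They stayed at 11 for fibrillar collagens under every alternative run and ranged from 4 to 6 for cartilage collagens. The count of 39 came from the higher-scoring 50% of peaks, where 64.1% of all genes were open. Col9a2 was open with a window of 1 kb or with hotspots. The mean number of distal peaks was 682 for all 55 genes, 221 for basement membrane genes, 149 for fibrillar and 62.5 for cartilage collagens. Within 50 kb of a TSS it was 449.5 for all 55 and 95 for fibrillar collagens. In the higher-scoring 50% of peaks it was 274, 92, 58.5 and 30 in the same order of sets. Among peaks found in both libraries, an alternative chosen after seeing the data, it was 374, 128, 82 and 35. These alternatives keep fewer peaks by construction. The share of all distal peaks held by the 55 genes ranged from 0.438% to 0.527%. Without replicate 1 or without replicate 2, open promoters were 47 for all 55 genes in each case, 18 to 19 for basement membrane genes, 11 for fibrillar and 5 for cartilage collagens. Distal peaks were 573 to 791, 181 to 261, 120 to 178 and 55 to 70, and 26 genes with a CpG ratio under 0.6 were open. With CG pairs counted over 500 bp to either side, an alternative also added after seeing the data, 27 of 36 such genes were open, against 32.8% of all genes. No paired analysis was possible because there was only 1 group. The depth is unknown, and 2 libraries give only a poor estimate of the spread.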
